A study of Mus musculus with 16 samples.

Results

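The circadian clock genes described here are 10 genes: the activators Arntl, Npas2 and Clock, the repressors Per1, Per2, Per3, Nr1d1 and Nr1d2, and the output genes Dbp and Tef. They were taken as the non-control array probes whose gene name is one of these symbols or a synonym of it, which gave 19 of the 41174 probes, 0 of them through a synonym alone. Their levels were measured in heart ventricle of 129Sv mice on 16 two-colour arrays. The 4 groups, each of 4 biological replicates, were CHIP-/- mice 1 week after trans-aortic banding (TAB, which narrows the aorta and so loads the left ventricle with pressure), CHIP-/- mice 1 week after a sham operation, wild-type mice 1 week after TAB, and wild-type mice 1 week after a sham operation. CHIP-/- mice lack CHIP, the product of Stub1, which is both a ubiquitin ligase and a co-chaperone. Heart RNA was labelled with Cy5 and hybridised against Cy3-labelled RNA of whole neonatal mice of mixed 129Sv and C57BL/6 strain, so a value is the log2 ratio of heart over reference and has no meaning as a level between genes. The labels give no age, no sex and no hour of day at which the hearts were taken, so a difference in sampling time between groups was not tested.

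In mammalian cells the clock is a loop of transcription and its own repression. The protein products of Arntl and of Clock or Npas2 pair up and bind E-boxes in the promoters of the Per genes, the Nr1d genes, Dbp and Tef, and the PER proteins, with the CRY proteins, later shut this activation off. NR1D1 and NR1D2 bind ROR elements and repress Arntl, so that Arntl peaks at the time of day when Dbp, Tef, Nr1d1 and Nr1d2 are low. DBP and TEF are transcription factors that bind D-boxes and pass the rhythm on to metabolic genes. In the heart the loop runs in the cardiomyocytes themselves, and it is known for daily rhythms of fuel use and of potassium channel genes.

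Promoter windows of 250 bases before and 50 after a gene start are printed for the genes that carried the largest banding differences (Dbp, Tef, Nr1d2 and Per1) and for Arntl, the activator that moves opposite to them in the loop. Tef, Per1 and Arntl each have 2 windows in the table; those printed for Per1 and Arntl are the ones with a match, and the other windows of both held none. The sequences are RefSeq's, assembly GRCm38.p6, written 5′ to 3′ on the gene's strand in lower case, with matches in capitals. The motifs searched on both strands were the E-box CACGTG, the D-box TTANGTAA, and the ROR element TAGGTCA or TGGGTCA, and no match overlapped another.
Dbp, chr7:45704997-45705296, plus strand: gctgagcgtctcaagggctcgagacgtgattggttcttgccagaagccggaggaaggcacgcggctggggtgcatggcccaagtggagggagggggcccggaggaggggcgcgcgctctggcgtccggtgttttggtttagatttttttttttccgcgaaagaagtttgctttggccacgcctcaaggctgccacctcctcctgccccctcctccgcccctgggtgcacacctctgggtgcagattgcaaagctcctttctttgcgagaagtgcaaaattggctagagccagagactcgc
Tef, chr15:81802423-81802722, plus strand: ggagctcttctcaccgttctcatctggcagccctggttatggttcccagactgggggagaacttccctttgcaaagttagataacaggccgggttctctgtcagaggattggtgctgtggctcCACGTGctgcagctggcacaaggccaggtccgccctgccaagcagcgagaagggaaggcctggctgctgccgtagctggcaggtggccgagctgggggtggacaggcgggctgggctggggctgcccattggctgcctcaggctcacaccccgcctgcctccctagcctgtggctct
Nr1d2, chr14:18239057-18239356, minus strand: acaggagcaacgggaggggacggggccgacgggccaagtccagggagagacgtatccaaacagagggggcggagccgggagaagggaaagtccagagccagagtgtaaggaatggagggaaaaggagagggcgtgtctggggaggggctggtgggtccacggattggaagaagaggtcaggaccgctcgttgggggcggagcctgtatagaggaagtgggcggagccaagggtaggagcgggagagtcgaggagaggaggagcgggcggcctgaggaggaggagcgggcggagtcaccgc
Per1, chr11:69098699-69098998, plus strand: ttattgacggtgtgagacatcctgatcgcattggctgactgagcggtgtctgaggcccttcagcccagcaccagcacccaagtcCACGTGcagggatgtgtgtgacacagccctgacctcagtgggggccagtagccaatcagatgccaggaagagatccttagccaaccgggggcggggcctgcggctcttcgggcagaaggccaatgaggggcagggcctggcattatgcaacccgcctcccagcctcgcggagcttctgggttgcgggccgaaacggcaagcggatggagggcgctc
Arntl, chr7:113207261-113207560, plus strand: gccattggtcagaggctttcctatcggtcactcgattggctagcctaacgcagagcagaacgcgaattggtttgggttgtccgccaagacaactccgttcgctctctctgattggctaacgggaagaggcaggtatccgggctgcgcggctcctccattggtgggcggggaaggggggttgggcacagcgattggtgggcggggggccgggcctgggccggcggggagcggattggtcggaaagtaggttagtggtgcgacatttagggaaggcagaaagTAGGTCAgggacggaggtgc

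The capitals mark an E-box at bases 124 to 129 of the Tef window, an E-box at bases 85 to 90 of the Per1 window, and a ROR element at bases 281 to 287 of the Arntl window, which lies after the gene start. The Dbp and Nr1d2 windows held none of these letters, which says nothing of sites outside them. The RefSeq table matched 9 of the 10 genes with 14 windows. The E-box stood in 3 of the 14 windows (1 of Per1 and both of Tef), against 7.15% of 32841 windows of all genes. The D-box stood in 1 window, that of Per3, where it occurred at 2 places, against 2.32% of all windows, and the ROR element in 1 window of Arntl, against 6.45%.

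Of the 19 probes, 5 had a heart signal well above background on all 16 arrays, 8 passed the filter of at least 4 arrays, 3 were above background on 1 to 3 arrays, and 8 on none. The probes that passed stood for 7 genes: Clock, Per1, Per2, Nr1d1, Nr1d2, Dbp and Tef. Npas2 and Per3, each with 1 probe, were not well above background on any array, and Arntl's only probe was on 3. No spot of a clock gene was saturated.

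Correlations of log2 ratios between arrays were 0.958 to 0.982 within groups and 0.847 to 0.980 between groups. On the arrays 26.9% to 37.2% of heart spots were well above background. Stub1 was lower in CHIP-/- mice by 1.70 on the log2 scale after sham and by 1.34 after TAB (limma adjusted p = 1.34e-11 and 3.58e-09 over all genes, no filter), but the position of its probe relative to the deleted part is not known here. Of 10 cardiomyocyte markers, 9 were well above background on all arrays. Transcripts of Y-linked genes were above background on 3 sham arrays (CHIP-/- sham replicates 2 and 4 and wild-type sham replicate 4) and on no TAB array. The sex marker Xist was not well above background on these 3 arrays and was on all others. By these transcripts only the sham groups held male hearts, so sex was not balanced between TAB and sham. Myl7, which encodes the myosin light chain of the atria, stood high on a further 3 sham arrays (CHIP-/- sham replicate 1 and wild-type sham replicates 1 and 3). Each group lay on a slide of its own, and the effects of slide and of group cannot be told apart.

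**Figure D1:**
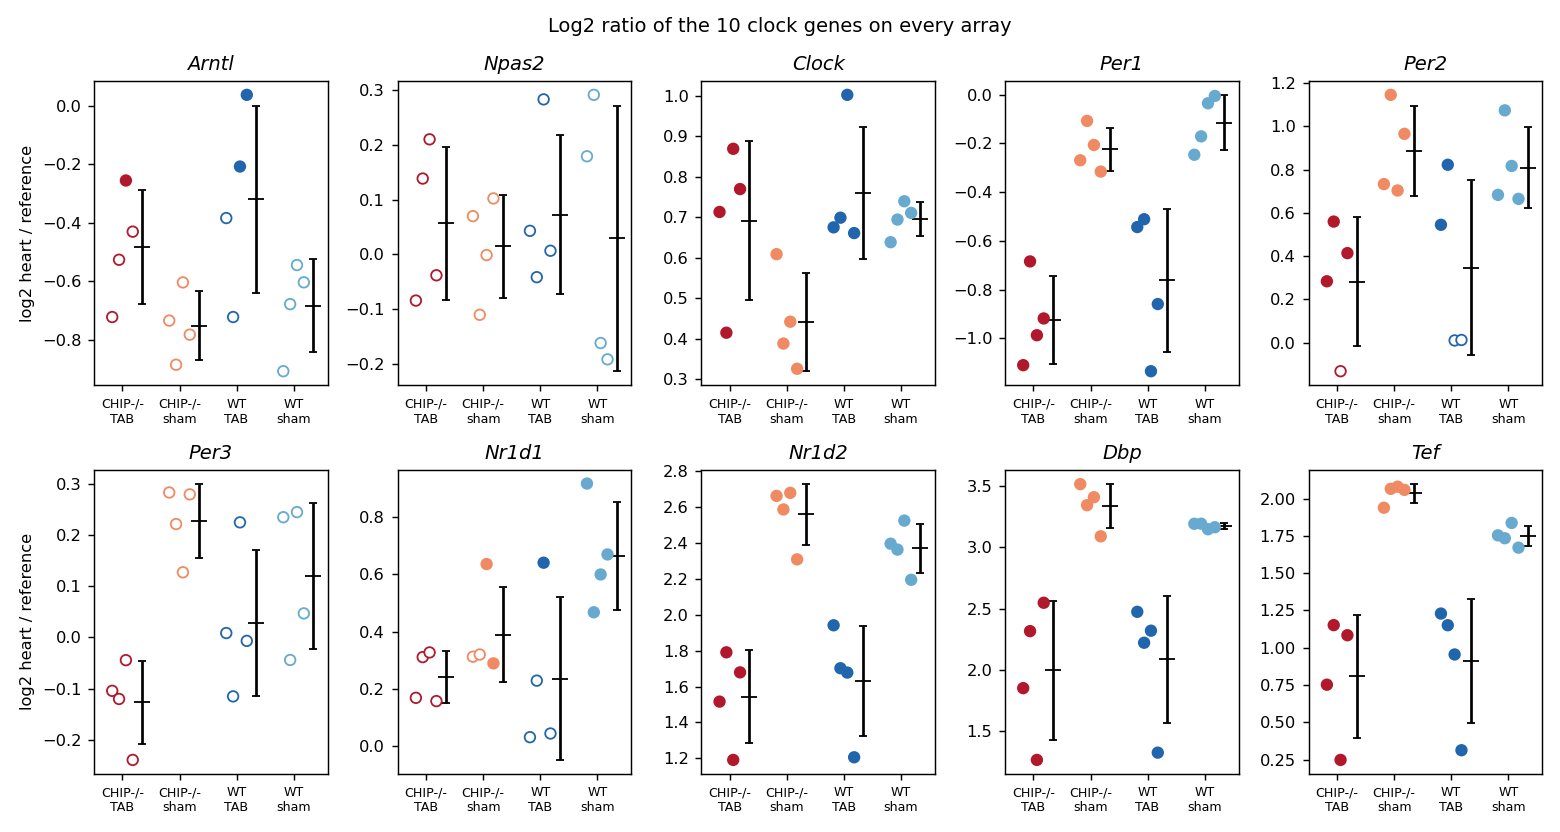
Log2 ratio of heart over reference (y axis) of the 10 clock genes, brightest probe of each, on every array of the 4 groups (x axis; replicates 1 to 4 from left to right), with the group mean and SD (n = 4) in black. Filled points were well above background and open points were not. In both genotypes all 4 TAB arrays lie below all 4 sham arrays for Per1, Nr1d2, Dbp and Tef, while Npas2 and Per3 have open points only.

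The first question was whether pressure overload changed the clock genes, and the output genes showed the largest differences. Dbp and Tef, both PAR bZIP transcription factors, fell after TAB in both genotypes. Dbp was 2.54-fold lower after TAB than after sham in CHIP-/- ventricle and 2.13-fold lower in wild-type ventricle, and Tef was 2.34-fold and 1.79-fold lower in the same order. In bulk ventricle, fewer cells of a type and less RNA per cell cannot be told apart.

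Dbp had log2 ratios of 1.85, 2.32, 1.26 and 2.55 on the CHIP-/- TAB arrays, against 3.52, 3.34, 3.41 and 3.09 on the CHIP-/- sham arrays. In wild type the values were 2.47, 2.22, 2.32 and 1.32 after TAB and 3.19, 3.19, 3.15 and 3.16 after sham. Every TAB value lay below every sham value of its genotype, and replicate 3 of CHIP-/- TAB and replicate 4 of wild-type TAB stood lowest. The difference was -1.35 ± 0.21 (SE) in CHIP-/- (limma, Benjamini-Hochberg adjusted p = 1.5e-05) and -1.09 ± 0.21 in wild type (adjusted p = 0.000306). Among all 11074 features tested, Dbp's difference was the 34th lowest in CHIP-/- and the 16th lowest in wild type.

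Tef had log2 ratios of 0.75, 1.15, 0.25 and 1.08 on the CHIP-/- TAB arrays, against 1.94, 2.06, 2.08 and 2.06 on the CHIP-/- sham arrays. Wild-type TAB arrays gave 1.23, 1.15, 0.95 and 0.31, against 1.75, 1.73, 1.84 and 1.67 on wild-type sham arrays. The groups did not overlap in either genotype, and the arrays that were lowest for Dbp were lowest for Tef. Its difference was -1.23 ± 0.16 (SE) in CHIP-/- (limma adjusted p = 1.74e-06) and -0.84 ± 0.16 in wild type (adjusted p = 0.000336). The other 3 Tef probes were above background on at most 1 array each.

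Among the repressors, Nr1d2 fell most. NR1D2 is a heme-binding nuclear receptor that represses Arntl together with its relative NR1D1. Nr1d2 had log2 ratios of 1.52, 1.79, 1.19 and 1.68 on the CHIP-/- TAB arrays, against 2.66, 2.59, 2.68 and 2.31 on the CHIP-/- sham arrays. In wild type it had 1.94, 1.70, 1.68 and 1.21 after TAB and 2.40, 2.36, 2.52 and 2.19 after sham. Again no TAB array reached a sham array. The difference was -1.01 ± 0.13 (SE) in CHIP-/- (limma adjusted p = 1.41e-06), a level 2.02-fold lower, and -0.74 ± 0.13 in wild type (adjusted p = 0.00015), 1.67-fold lower.

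Nr1d1 passed the filter through the sham groups, where it is higher: it was well above background on none of the CHIP-/- TAB, 2 of the CHIP-/- sham, 1 of the wild-type TAB and 4 of the wild-type sham arrays. In wild type its log2 ratios were 0.032, 0.23, 0.64 and 0.045 after TAB, against 0.92, 0.47, 0.60 and 0.67 after sham. Replicate 3 of wild-type TAB lay within the sham range, and the other TAB arrays lay below it. The fitted difference was -0.43 ± 0.13 (SE, limma adjusted p = 0.0118; without wild-type sham replicate 1 -0.34, adjusted p = 0.055), but the filter was passed through the sham arrays and most TAB values lie at background, so it is given as a description only. In CHIP-/- the values were 0.17, 0.31, 0.33 and 0.16 after TAB and 0.31, 0.32, 0.64 and 0.29 after sham, and the groups overlapped. Mean log2 heart signals there were 6.43 after TAB and 6.55 after sham, and no fold is given. The other 2 Nr1d1 probes were above background on no array.

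Per1 and Per2 encode the PERIOD proteins, which with the CRY proteins inhibit the CLOCK and ARNTL pair. Per1 had log2 ratios of -1.11, -0.68, -0.99 and -0.92 on the CHIP-/- TAB arrays, against -0.27, -0.11, -0.21 and -0.32 on the CHIP-/- sham arrays. In wild type they were -0.54, -0.51, -1.14 and -0.86 after TAB and -0.25, -0.17, -0.036 and -0.0058 after sham. The groups did not overlap in either genotype, and the wild-type TAB arrays split into a higher pair (replicates 1 and 2) and a lower pair. Per1 fell by 0.70 ± 0.11 (SE, log2) in CHIP-/- (limma adjusted p = 1.94e-05) and by 0.65 ± 0.11 in wild type (adjusted p = 9.3e-05).

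Per2 was above background on 3 CHIP-/- TAB, 4 CHIP-/- sham, 2 wild-type TAB and 4 wild-type sham arrays. Its log2 ratios were 0.28, 0.56, -0.13 and 0.41 in CHIP-/- TAB, against 0.73, 1.15, 0.70 and 0.96 in CHIP-/- sham ventricle, without overlap. Wild-type TAB arrays had 0.54, 0.82, 0.0097 and 0.012, against 0.68, 1.07, 0.82 and 0.66 on wild-type sham arrays, where replicate 2 of TAB lay within the sham range. The difference was -0.61 ± 0.17 (SE) in CHIP-/- (limma adjusted p = 0.0045) and -0.46 ± 0.17 in wild type (adjusted p = 0.0331). The CHIP-/- call was lost without the 3 arrays with Y-linked transcripts (-0.44, adjusted p = 0.103). The wild-type call was lost without wild-type sham replicate 2 or 3, or wild-type TAB replicate 3 or 4 (-0.46 to -0.35, adjusted p = 0.061 to 0.128), and without the 3 arrays with high Myl7 (-0.52, adjusted p = 0.085).

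Among the activators only Clock passed the filter and was tested, and it was not called lower after TAB. Clock encodes the DNA-binding partner of ARNTL. Its brightest probe had log2 ratios of 0.71, 0.41, 0.87 and 0.77 in CHIP-/- TAB, against 0.61, 0.39, 0.44 and 0.33 in CHIP-/- sham ventricle. Wild-type values were 0.67, 0.70, 1.00 and 0.66 after TAB and 0.64, 0.69, 0.74 and 0.71 after sham. Groups overlapped in both genotypes. Clock rose by a difference of 0.25 ± 0.10 (SE) in CHIP-/- (limma adjusted p = 0.0368), and the wild-type difference was 0.06 ± 0.10 (adjusted p = 0.648), which was -0.10 with the arrays centred on their median (adjusted p = 0.476). The CHIP-/- call was lost without any of 6 of the 8 CHIP-/- arrays (replicates 2, 3 and 4 of sham and 1, 3 and 4 of TAB; 0.19 to 0.25, adjusted p = 0.0641 to 0.135), and with the arrays centred on their median it was 0.027 (adjusted p = 0.856). A second Clock probe that passed the filter gave 0.01 in CHIP-/- (adjusted p = 0.957) and 0.19 in wild type (adjusted p = 0.247).

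Arntl encodes the obligatory partner of CLOCK and NPAS2. Its probe was well above background on 1 CHIP-/- TAB array and 2 wild-type TAB arrays, and on no sham array. Log2 ratios were -0.72, -0.53, -0.26 and -0.43 in CHIP-/- TAB, against -0.73, -0.89, -0.60 and -0.78 in CHIP-/- sham ventricle, and -0.38, -0.72, -0.21 and 0.038 in wild-type TAB, against -0.91, -0.68, -0.54 and -0.60 in wild-type sham ventricle. The groups overlapped in both genotypes. Mean log2 heart signals were 6.50 after TAB and 6.34 after sham in CHIP-/-, and 6.64 after TAB and 6.34 after sham in wild type, too near background for a fold. In a fit with no filter the differences did not pass the test (limma adjusted p = 0.211 in CHIP-/- and 0.0784 in wild type). For Npas2, the relative of CLOCK, and Per3 no fold is given, since no group was above background. In the fit with no filter, Per3 had a difference of -0.35 in CHIP-/- (limma adjusted p = 0.00183), with all its values at background. Per3 in wild type (adjusted p = 0.579) and Npas2 (0.876 in CHIP-/- and 0.866 in wild type) did not pass in that fit.

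Across the 7 genes tested, 5 fell and 1 rose after TAB in CHIP-/-, where 23.1% of all features were called lower and 24% higher. In wild type 6 fell and 0 rose (6 also at an unadjusted p below 0.05, as did 44.4% of features), where 16.9% of features were called lower and 18.7% higher. Without Nr1d1, which alone passed the filter through the sham arrays only (a choice made after seeing the data), 5 fell and 1 rose of 6 in CHIP-/- and 5 fell of 6 in wild type. The groups did not overlap, with TAB lower, for 5 of 7 in CHIP-/- (20.6% of all features) and for 4 of 7 in wild type (15.2%). The median difference of the 7 genes was -0.70 in CHIP-/- and -0.65 in wild type, against -0.0051 and 0.0013 over all features. Without the 3 arrays with Y-linked transcripts, 4 fell and 0 rose in CHIP-/- and 6 fell in wild type, and without the 3 arrays with high Myl7, 5 fell and 1 rose in CHIP-/- and 4 fell in wild type. Of all calls, 50.9% in CHIP-/- and 52.4% in wild type were higher after TAB. When arrays were centred on their median in place of loess, these shares were 12.3% and 8.7% and the median feature stood at -0.22 and -0.19. Relative to that median, Dbp was still -1.50 in CHIP-/- and -1.21 in wild type, and Per2 -0.43 and -0.26.

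**Figure D2:**
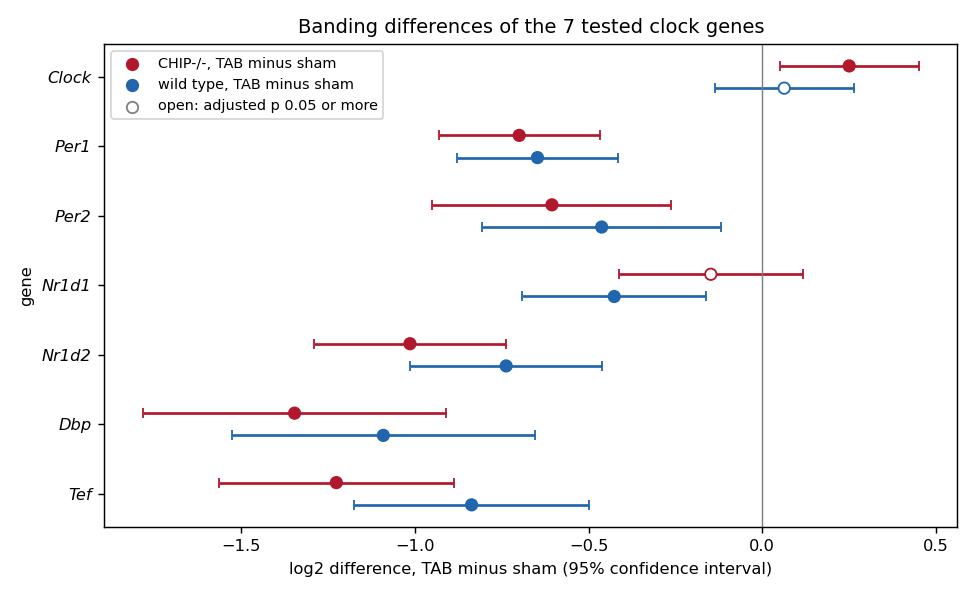
Log2 difference, TAB minus sham (x axis), of the 7 tested clock genes (y axis) with its 95% confidence interval from the limma fit over 16 arrays, CHIP-/- in red above wild type in blue. Filled points had an adjusted p below 0.05. Dbp, Tef, Nr1d2, Per1, Per2 and Nr1d1 lie below 0 in both genotypes, and Clock lies at or above 0. Nr1d1, filled in wild type only, was near background and passed the filter through the sham arrays, so its points are a description only.

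The second question was whether loss of CHIP changed the clock genes or their response to TAB. After TAB, 0 of the 7 genes passed the test between CHIP-/- and wild type (limma; 0 also at an unadjusted p below 0.05, against 24.4% of features), where 11.5% of all features did. The differences ran from -0.16 ± 0.11 (SE) for Per1 to -0.07 ± 0.17 for Per2, with Nr1d1 left out as near background in both groups, and that of Dbp was -0.09, with a 95% confidence interval of -0.53 to 0.35.

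After sham, 0 of 7 passed the limma test, as did 0.0361% of all features, and 2 had an unadjusted p below 0.05, against 8.04% of features. These were Clock (-0.25 ± 0.10, SE, adjusted p = 0.43) and Nr1d1 (-0.27 ± 0.13, adjusted p = 0.604). Nr1d1 was well above background on 4 wild-type sham arrays but on only 2 CHIP-/- sham arrays. The wild-type sham arrays, where it is higher, met the filter by themselves, so its value is given as a description only. By its brightest probe, Clock was lower on every CHIP-/- sham array than on every wild-type sham array, without overlap as for 3.13% of all features. The second Clock probe that passed the filter gave 0.056, with overlapping groups (limma adjusted p = 0.961). That probe was well above background on 1 CHIP-/- sham and 2 wild-type sham arrays. Tef was higher on every CHIP-/- sham array than on every wild-type sham array, as for 2.27% of features. Tef's difference was 0.29 ± 0.16 (adjusted p = 0.725).

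The difference between the 2 TAB responses, tested as an interaction, passed for 0 of 7 genes (limma; 0 also at an unadjusted p below 0.05, against 18.6% of features), against 5.39% of all features. Tef had the lowest value, -0.39, with a 95% confidence interval of -0.87 to 0.09 and an adjusted p of 0.394. For Dbp the interval was -0.87 to 0.36. With 4 arrays a group, differences of these sizes could not be told from 0.

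The mean of the 3 activators minus the mean of the 7 repressors and output genes was taken on each array as a description of the loop. Its zero is set by the reference RNA, and Npas2 and Per3 in it are at background, so only its differences between arrays are read. It was -0.51, -0.75, 0.0084 and -0.57 on the CHIP-/- TAB arrays, against -1.33, -1.57, -1.40 and -1.36 on the CHIP-/- sham arrays. In wild type it was -0.70, -0.81, -0.31 and -0.055 after TAB and -1.31, -1.13, -1.29 and -1.23 after sham. All 8 TAB arrays lay above all 8 sham arrays, which restates the falls given above. The mean of the 7 repressors and output genes was 0.27 to 0.81 on TAB arrays and 1.20 to 1.37 on sham arrays. That of the 3 activators overlapped, with -0.031 to 0.36 after TAB and -0.20 to 0.10 after sham.

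Group means of this contrast were -0.46 ± 0.33 in CHIP-/- TAB, -1.41 ± 0.11 in CHIP-/- sham, -0.47 ± 0.35 in wild-type TAB and -1.24 ± 0.08 in wild-type sham ventricle (SD, n = 4 each). The TAB arrays were spread more widely than the sham arrays, from -0.81 to 0.0084 against -1.57 to -1.13. With the members that were above background nowhere left out, a choice made after seeing the data, the means were -0.55 ± 0.40, -1.65 ± 0.11, -0.52 ± 0.44 and -1.44 ± 0.11 in the same order. Since the labels give no hour of sampling, hour, slide and surgery cannot be told apart in this contrast.

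**Figure D3:**
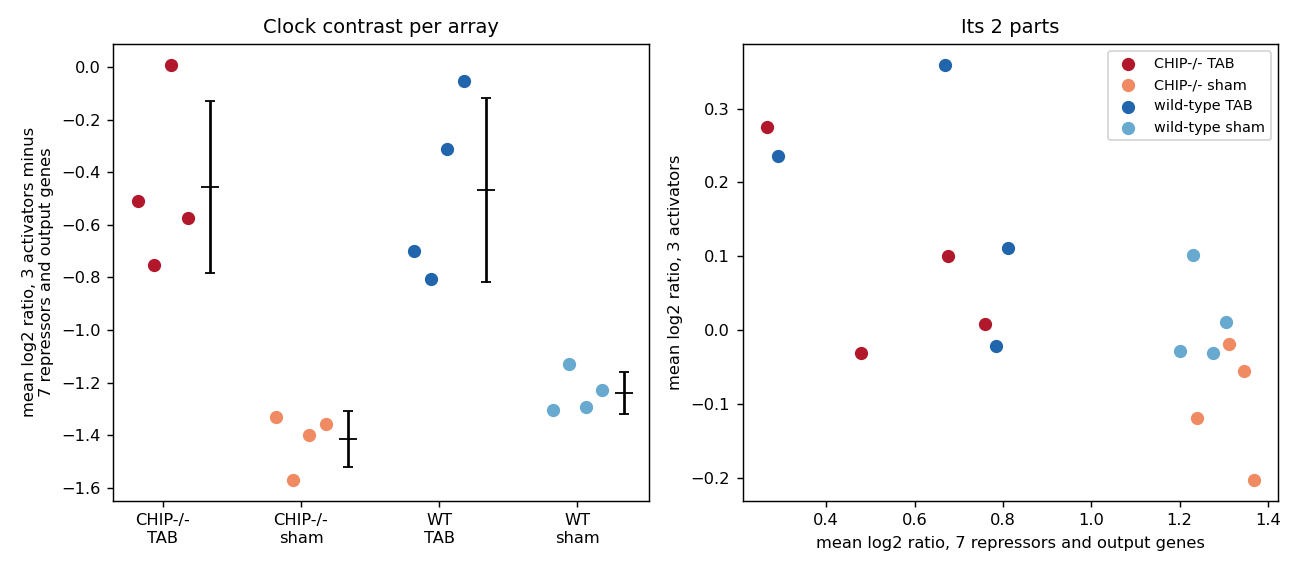
Left, the mean log2 ratio of the 3 activators minus that of the 7 repressors and output genes on each array (y axis) by group (x axis), with group mean and SD (n = 4) in black. Right, its parts on each array, the mean of the 7 repressors and output genes on the x axis and of the 3 activators on the y axis. TAB arrays lie above sham arrays on the left, from -0.81 to 0.0084 against -1.57 to -1.13, and spread more widely. On the right, TAB and sham arrays separate on the x axis and overlap on the y axis.

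Within groups, the output genes varied far more after TAB than after sham. The SD of Dbp was 0.57 in CHIP-/- TAB, at the 99.9th percentile of all features in that group, and 0.18 in CHIP-/- sham (88.8th percentile). In wild type it was 0.52 after TAB (99.7th percentile) and 0.022 after sham (1.4th percentile). Tef followed, with 0.41 (99.7th) and 0.065 (22.9th) in CHIP-/- TAB and sham, and 0.42 (99.3rd) and 0.068 (21.9th) in wild-type TAB and sham. The difference in spread was not tested.

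The same arrays set these spreads for several genes. On CHIP-/- TAB replicate 3 and wild-type TAB replicate 4, Dbp, Tef and Nr1d2 had the lowest values of their groups and Arntl the highest. These arrays had 32.8% and 31.4% of heart spots well above background, inside the range of the others.

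Deviations from the group mean were compared between the 7 tested genes and Arntl, in 28 pairs over 16 arrays, which also removes the slide. Two-sided permutation within groups with 100000 resamples gave the p-values. Dbp and Nr1d2 moved together (Pearson r = 0.89, permutation p = 0.00122, adjusted over the 28 pairs 0.021; Spearman rho = 0.81, p = 0.00476, adjusted 0.0666), as did Nr1d2 and Tef (r = 0.87, p = 0.0015, adjusted 0.021; rho = 0.84, p = 0.00212, adjusted 0.0594). No other pair had an adjusted p of r below 0.05. The r of Dbp with Tef was 0.91 (p = 0.0138, adjusted 0.0969; rho = 0.71, p = 0.0318, adjusted 0.191).

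Leaving out the 2 arrays farthest from the median, which were CHIP-/- TAB replicate 3 and wild-type TAB replicate 4 in all 3 pairs, gave an r of 0.74 for Dbp with Nr1d2, 0.68 for Nr1d2 with Tef and 0.71 for Dbp with Tef. Over the 8 TAB arrays alone the r values of these pairs were 0.95, 0.98 and 0.97, and over the 8 sham arrays 0.73, 0.29 and -0.41. Arntl ran against Per2 with an r of -0.70 (p = 0.0232, adjusted 0.13; rho = -0.70, p = 0.0194, adjusted 0.181), which was -0.49 without wild-type TAB replicates 2 and 4. All points share an array and its normalization between the genes of a pair, and most Arntl values are below background.

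**Figure D4:**
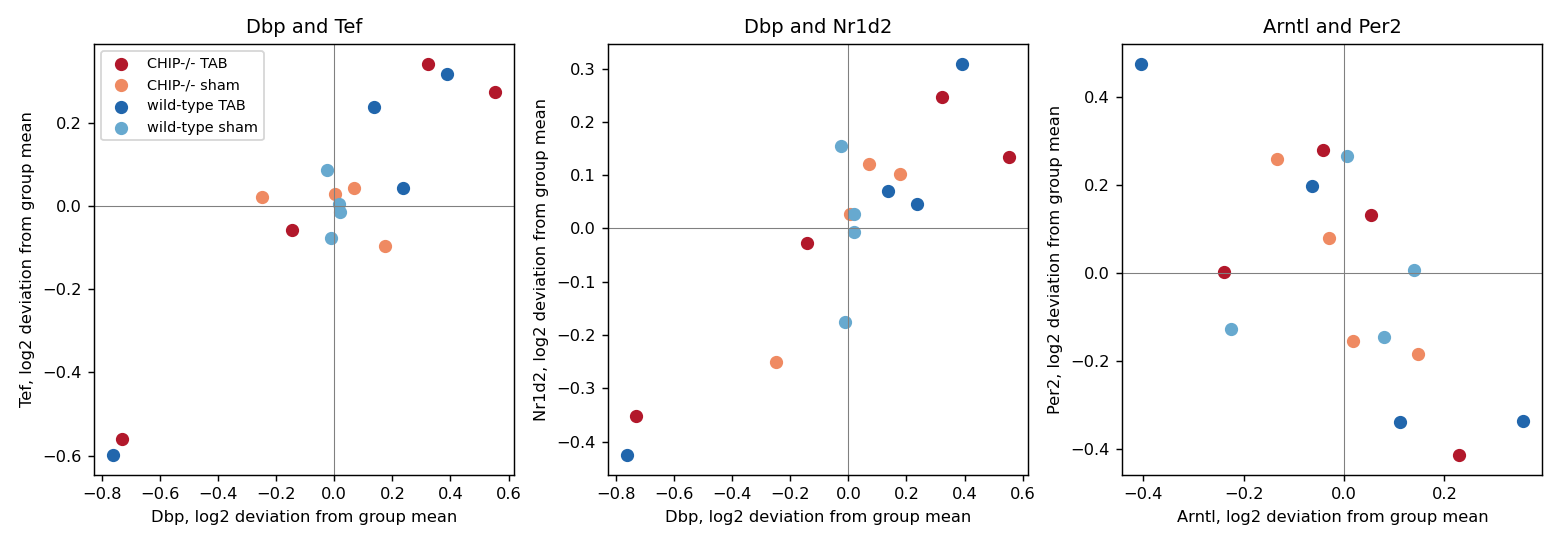
Log2 deviation from the group mean of Dbp and Tef (left), Dbp and Nr1d2 (middle) and Arntl and Per2 (right), 1 point an array, coloured by group (n = 16). The r values are 0.91, 0.89 and -0.70, and in the first 2 panels CHIP-/- TAB replicate 3 and wild-type TAB replicate 4 lie at the lower left.

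Set against all features with complete values by the same measure, Tef and Nr1d2 ranked 2nd and 3rd of 10802 in likeness to Dbp. Among the 10011 of these that carry a gene symbol and are not clock genes of the 10, those most like Dbp were Mid1ip1 (r = 0.92), a regulator of acetyl-CoA carboxylase, Idh3g (0.88), a subunit of the mitochondrial isocitrate dehydrogenase, Txlnb (0.88), Acy3 (0.86) and Mrpl3 (0.85), a mitochondrial ribosomal protein. Those with the lowest r were Lox (-0.87), the collagen crosslinking enzyme lysyl oxidase, Vmp1 (-0.82), Spon1 (-0.82), Cetn3 (-0.81) and Cdc42 (-0.81). For Arntl the highest included Fam171a2 (0.87), Tmem167 (0.85), Ube2s (0.82) and Txndc11 (0.81), and the lowest Cpsf7 (-0.87), Cdc42ep2 (-0.85), Adcy5 (-0.84), Mfhas1 (-0.84) and Nfu1 (-0.82). These are picked as the extremes of all these values on 16 arrays and are given as a description.

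Of 30 other genes of the clock and its regulators, 22 were tested. In CHIP-/-, 7 fell and 5 rose after TAB, where 23.1% of all features were called lower and 24% higher. In wild type 6 fell and 3 rose, where 16.9% of features were called lower and 18.7% higher. The medians were -0.04 in CHIP-/- and -0.15 in wild type, against -0.0051 and 0.0013 over all features. The genes of this list with the lowest adjusted p were Nampt, Ciart, Usp2 and Hlf in both genotypes, all known to follow the loop. Hlf, the third PAR bZIP factor beside Dbp and Tef, fell by 1.06 ± 0.13 in CHIP-/- and by 1.04 ± 0.13 in wild type (SE, log2; limma adjusted p = 3.8e-07 and 1.35e-06). Ciart, a repressor of the CLOCK and ARNTL pair, fell by 1.32 ± 0.15 and by 1.03 ± 0.15 in the same order (adjusted p = 2.34e-07 and 1.57e-05).

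Usp2, a deubiquitinase with a strong daily rhythm, fell by 1.13 in CHIP-/- and by 0.78 in wild type. Nampt, the rate-limiting enzyme of NAD salvage, fell by 1.16 and by 0.78, Prkaa2, a catalytic subunit of AMPK, by 0.64 and by 0.56, and the cold-inducible RNA-binding protein gene Cirbp by 0.71 and by 0.44. Cry2, the partner of the PER proteins, had -0.34 in CHIP-/- (adjusted p = 0.0187) and -0.29 in wild type (adjusted p = 0.0513). Fbxw11, Tipin and Sfpq rose by differences of 0.17 to 0.33 in both genotypes, and Nono and Timeless in CHIP-/-, but with arrays centred on their median 11 fell and 0 rose in each genotype (medians of -0.25 in CHIP-/- and -0.29 in wild type), and Fbxw11, Tipin, Sfpq and Nono had the opposite sign.

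Of 16 genes known to follow the clock of the cardiomyocyte, 15 were tested. After TAB 12 fell and 2 rose in CHIP-/-, and 10 fell and 2 rose in wild type, with medians of -0.60 and -0.38, where 23.1% of all features were lower and 24% higher in CHIP-/-, and 16.9% and 18.7% in wild type. Klf15, a clock-driven regulator of metabolism and of potassium channel genes, fell by 1.41 ± 0.15 in CHIP-/- and by 0.96 ± 0.15 in wild type (SE, log2; limma adjusted p = 5.95e-08 and 2.64e-05). Its target Kcnip2, an auxiliary subunit of the transient outward potassium channel, fell by 0.78 ± 0.14 and by 0.95 ± 0.14 (adjusted p = 7.32e-05 and 1.25e-05), and the pore subunit gene Kcnd2 by 0.70 ± 0.10 and by 0.88 ± 0.10 (adjusted p = 5.61e-06 and 6.53e-07). Dgat2, which makes triglyceride, fell by 1.55 in CHIP-/- and by 0.74 in wild type, and Pnpla2, which breaks it down, by 0.82 and by 0.42.

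Pdk4, the kinase that shuts pyruvate dehydrogenase, fell by 0.90 ± 0.32 in CHIP-/- (limma adjusted p = 0.0257) and rose by a difference of 1.45 ± 0.32 in wild type (adjusted p = 0.00116). Tspan4, which encodes a tetraspanin, rose by a difference of 0.27 ± 0.08 in CHIP-/- (limma adjusted p = 0.00705), but had the opposite sign with arrays centred on their median. Markers of the cardiomyocyte itself moved alongside: of 8 tested, 7 fell and 1 (Tnnt2, of opposite sign with median centring) rose in CHIP-/-, and 5 fell in wild type, with medians of -0.43 and -0.26. Without the arrays with Y-linked transcripts 3 fell in CHIP-/-, without those with high Myl7 3 fell in wild type, and with median centring 8 fell in both. Of all features, 23.1% were called lower and 24% higher after TAB in CHIP-/-, and 16.9% and 18.7% in wild type. Pln fell by 1.24 and by 0.86, and Myh6 by 0.77 and by 0.48, in CHIP-/- and wild type. The summed ratio of the 10 markers ranged from 199 to 287 in CHIP-/- TAB, 173 to 328 in CHIP-/- sham, 301 to 357 in wild-type TAB and 340 to 370 in wild-type sham ventricle, none of the 10 was absent, and their part in the falls of the clock genes was not tested. Of 8 tested macrophage markers, 8 rose and 0 fell in CHIP-/- and 6 rose and 0 fell in wild type, against these same shares of all features. The summed ratio of the list of 8 was 11.7 to 13.6 in CHIP-/- TAB, 6.00 to 7.56 in CHIP-/- sham, 9.65 to 10.6 in wild-type TAB and 7.44 to 8.21 in wild-type sham ventricle. Of 8 tested fibroblast markers, 6 rose and 1 fell in CHIP-/- and 5 rose and 1 fell in wild type, with sums of 7.25 to 8.54, 3.88 to 6.27, 6.28 to 7.51 and 5.91 to 6.74 in the same order of groups. Sums of 7 adipocyte markers were 3.03 to 3.80 in CHIP-/- TAB, 1.12 to 2.47 in CHIP-/- sham, 3.77 to 4.13 in wild-type TAB and 2.11 to 2.24 in wild-type sham ventricle. Those of 6 smooth muscle and pericyte markers were 8.50 to 9.64, 6.15 to 6.68, 9.11 to 10.4 and 6.90 to 7.11 in the same order, those of 8 endothelial markers 15.1 to 18.3, 13.8 to 15.5, 16.3 to 22.0 and 14.4 to 16, and those of 5 atrial markers, Nppa among them, 74.0 to 92.8, 9.66 to 21.5, 43.8 to 83.3 and 14.7 to 37.8. Of 5 tested adipocyte markers, 4 rose and 0 fell in CHIP-/- and 2 rose and 0 fell in wild type, with medians of 0.54 and 0.14. Of 6 tested smooth muscle and pericyte markers, 5 rose in CHIP-/- and 6 in wild type, and 0 fell. Of 8 tested endothelial markers, 4 rose in CHIP-/- and 6 in wild type, and 0 fell. The same shares of all features apply. The atrial sums do not stand for the list, since only 1 of the 5 rose and 0 fell in each genotype. The median log2 difference of the 5 was 0.03 in CHIP-/- and -0.21 in wild type. The sums of red cell and skeletal muscle markers overlapped between TAB and sham in both genotypes. The part of these markers in the clock gene differences was not tested.

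**Figure D5:**
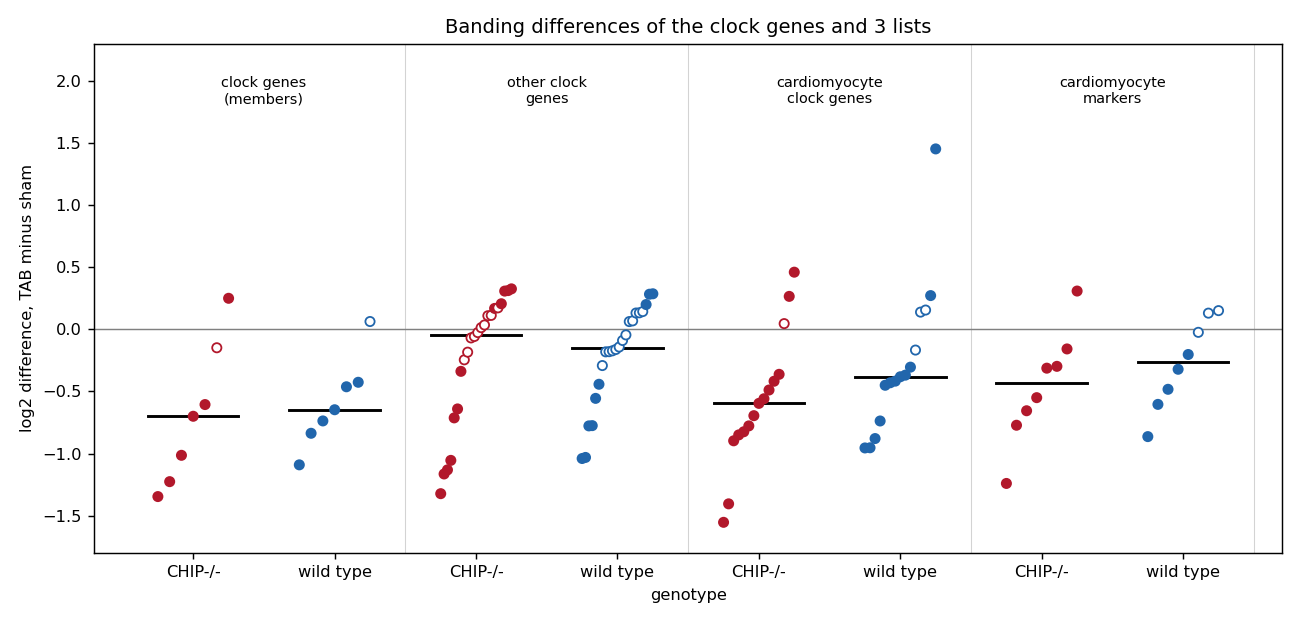
Log2 difference, TAB minus sham (y axis), of each tested gene of 4 lists, the clock genes, other clock genes, genes following the cardiomyocyte clock and cardiomyocyte markers, in CHIP-/- (red) and wild type (blue; x axis). Filled points had an adjusted p below 0.05 and black bars are list medians, which for the clock genes lie at -0.70 and -0.65.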

How the data were processed

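The members and the lists were chosen with earlier results of these data known. The deposited scanner files hold linear intensities (mean signal of each spot and median local background, both channels) and a log10 ratio of heart over reference, which per the file headers was spatially and multiplicatively detrended and dye-normalized, with no local background correction, by Agilent Feature Extraction 9.1.3.1, and the authors' series values are log2 ratios centred per probe. Per the labels' protocols, RNA was extracted with Trizol, and 500 ng each of heart (Cy5) and reference RNA (Cy3) was amplified and labelled; dyes were not swapped. All 16 arrays were used here. Intensities were corrected by normexp (offset 50) and loess within each array (limma 3.58.1, R 4.3.3), with outlier spots dropped and spots of a probe averaged. The offset compresses the ratios of dim probes. Kept were probes whose heart signal was well above background on 4 arrays or more, and the brightest probe with at least 15 values stood for a gene, which gave 11074 features. Gene names came from probe accessions and symbols through RefSeq's annotation of GRCm38.p6.

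All arrays entered a single limma fit with a mean per group and an intensity trend. The 5 comparisons were adjusted over all features by Benjamini-Hochberg and called below 0.05. The replicates are biological per the labels, and their number, 4 a group, limits the precision. The fit was tested on simulated data. Named were all members, from the other lists those of lowest adjusted p per comparison (4 a list) and genes in counts of 5 or fewer, and the 5 features of highest and lowest likeness to Dbp and Arntl; Prkaa2, Cirbp, Cry2, Pln and Myh6 were added after their values were seen. Some genes that this rule names are not reported here. Alternatives were other background corrections, scalings, filters and error models, sex as a covariate, the replicate block, arrays left out, and the authors' series values. Glucocorticoid responsive and immediate early genes are given with the other observations.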

Additional observations from a re-analysis of the deposited data

Results flagged for a closer look

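Single arrays stood apart from the other 3 of their group in 3 of the 28 groups of 4 values tested with Dixon's criterion (chance gives about 1 in 20). Nr1d1, near background, had a log2 ratio of 0.64 in replicate 3 of CHIP-/- sham, while the other 3 lay at 0.29 to 0.32. Tef had 1.94 on CHIP-/- sham replicate 1, below the others at 2.06 to 2.08. Clock had 1.00 on wild-type TAB replicate 3, above the others at 0.66 to 0.70. No explanation was tested.

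The TAB response differed between the genotypes, by the interaction term of the limma fit, for 4 list genes and for no clock gene. Pdk4 had a difference of -2.35 ± 0.46 (SE, CHIP-/- minus wild type; adjusted p = 0.00444), Dgat2 -0.82 ± 0.21 (adjusted p = 0.0219), Pnpla2 -0.41 ± 0.10 (adjusted p = 0.0221) and the metallothionein gene Mt1 -0.79 ± 0.14 (adjusted p = 0.00281). Calls of Dgat2 and Pnpla2 were lost under 7 and 10 of the 31 alternatives, and that of Mt1 under 1.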

How the results depend on the processing

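The counts of called clock genes stayed within 1.5 times their value under every alternative run: 4 to 6 of the tested genes in CHIP-/- and in wild type after TAB, and 0 in the comparisons of genotypes and in the interaction. Leaving out each array in turn gave 5 to 6 clock genes called for TAB in CHIP-/-, 5 to 6 in wild type and 0 in the other 3 comparisons, and it gave 4716 to 5278 features for TAB in CHIP-/-, 3407 to 4014 for TAB in wild type, 808 to 1381 for CHIP-/- against wild type after TAB, 2 to 15 for the same after sham, and 344 to 784 for the interaction. Dbp, Tef, Nr1d2 and Per1 kept their calls in both genotypes under all 32 alternatives, with Dbp at -1.72 to -1.10 in CHIP-/- and -1.40 to -0.84 in wild type. The calls of Per2 (in wild type under 10 alternatives and in CHIP-/- under 1), Nr1d1 (in wild type under 2) and Clock (in CHIP-/- under 11) were lost, with no change of sign, and no call of a clock gene reversed. The size of some ratios depended on the processing. With Feature Extraction's log ratio Per1, above background on all 16 arrays, stood at -1.24 in CHIP-/-. Per2 stood at -1.34 in CHIP-/- and -0.98 in wild type (limma adjusted p = 0.0667). Nr1d1, near background, ranged from -1.79 to -0.33 in wild type over 31 alternatives, against -0.43 in the main fit. Sex as a covariate ended the calls of Clock in CHIP-/- (adjusted p = 0.138) and Per2 in wild type (adjusted p = 0.0581).

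Over all features, 2576 passed for TAB in wild type without the 3 arrays with high Myl7, against 3943. Between genotypes after sham, against 4 features, there were 22 with median centring, 2 with Feature Extraction's ratio and with the series table, 42 with array weights, 14 with sex as a covariate, 19 without the arrays with high Myl7, 8 without those with Y-linked transcripts (an alternative chosen after seeing the data), and 40 with only those 2 groups. After TAB 439 passed with median centring, against 1275. The interaction gave 180 with median centring, 392 with no filter on dim probes, 385 without the intensity trend and 98 without the arrays with Y-linked transcripts, against 597. The replicate numbers do not pair the arrays: deviations of the 24 same-numbered pairs from their group means correlated from -0.185 to 0.183. The replicate block left 6 clock genes called in CHIP-/- and 6 in wild type, and changed no call of a clock gene. Aquantile leaves the ratios as they are, and the trend used the same intensities as the main fit. It therefore repeats the main fit and could move no result, though it is counted among the alternatives above. The series table, centred per probe, gives no clock contrast. Arntl, Npas2, Per3, Nr1d1 and Per2 lay near background, which limits their values.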

Other observations

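Of 12 glucocorticoid responsive genes, 11 were tested. After TAB 2 fell and 2 rose in CHIP-/-, and 1 fell and 3 rose in wild type, against the shares of all features called (23.1% lower and 24% higher in CHIP-/-, 16.9% and 18.7% in wild type). The metallothionein gene Mt2 rose by a difference of 1.22 ± 0.19 (SE, log2) in CHIP-/- and 1.88 ± 0.19 in wild type (limma adjusted p = 1.3e-05 and 1.16e-07), and the cell cycle inhibitor gene Cdkn1a by 0.66 and 0.76. Klf9, a glucocorticoid-induced factor that also cycles daily, fell by 0.61 in CHIP-/- and by 0.29 in wild type. Dusp1 fell in CHIP-/- (-0.41, adjusted p = 0.00512), and Mt1 rose in wild type (0.89, adjusted p = 6.14e-07). With arrays centred on their median, 6 fell and 2 rose in CHIP-/- and 4 fell and 3 rose in wild type.

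Of 11 immediate early genes, which respond to stimuli within minutes, 9 were tested. In CHIP-/- 5 rose and 1 fell, and in wild type 3 rose and 0 fell, against the same shares of all features. Egr2 rose by a difference of 0.96 ± 0.12 in CHIP-/- and 0.63 ± 0.12 in wild type (limma adjusted p = 1.08e-06 and 0.000332). Junb rose by 0.97 and Egr1 by 0.73 in CHIP-/-, and Ier2 and Egr1 rose by 0.36 and 0.41 in wild type. Between CHIP-/- and wild-type ventricle after TAB, Junb (0.63) and Ier3 (0.55) were higher in CHIP-/- and Dusp1 (-0.51) was lower. With arrays centred on their median, 3 rose and 2 fell in CHIP-/- and 1 rose and 4 fell in wild type after TAB.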
